A study of Mus musculus with 8 samples.

Results

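A group of 10 interferon-stimulated genes, whose products act on viruses or on the protein tag ISG15, was followed from young to very old mouse hippocampus. The genes were Ifit1, Ifit3, Isg15, Usp18, Oas1a, Oasl2, Rsad2, Bst2, Ifi44 and Rtp4, chosen by name out of the 19751 genes that could be named on the array. Naming through RefSeq covered 66.1% of probes, and every probe so tied to one of these genes was used, which gave 12 of 39429 probes. The question behind the comparison was which transcripts differ in the hippocampus, a brain region needed for memory, between 3-month-old (3M) and 29-month-old (29M) mice. Each group held 4 arrays. All mice were C57BL/6J of wild type genotype, received no treatment and were kept in home cages, and the full hippocampus was dissected by hand. Per the study's methods the old mice were bought at an already advanced age and then held on site, so that the groups differed in housing history as well as in age. RNA was labelled with Cy3 and hybridised to 1-colour Agilent arrays on 3 slides. A level is given throughout as the normalized log2 intensity of a probe, and a log2 change is the 29M mean minus the 3M mean of that probe.

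Interferons are secreted proteins that cells release after sensing viral or misplaced nucleic acid. Type I interferons bind the receptor pair IFNAR1 and IFNAR2, and the kinases JAK1 and TYK2 then activate the complex ISGF3, which binds interferon-stimulated response elements in the promoters of target genes. The targets described here are classic members of that programme: some bind foreign RNA, some make signalling nucleotides, some hold virus particles at the membrane, and USP18 closes the loop by blocking the receptor. In the brain, microglia, astrocytes, endothelial cells and neurons can all switch these genes on.

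All 9 hippocampal marker genes examined (among them Prox1 of the dentate gyrus and Wfs1 of CA1) were well above background on all 8 arrays, and none was called between the ages although 2 of 9 had an unadjusted p under 0.05 by limma. Between 76.2% and 85% of spots were well above background per array, and no spot was saturated. The 3M replicate 1 array stood apart: it had the lowest of these shares, it was the only array that the scanner software marked for evaluation, and for 9 of the 10 genes it was the highest of the 3M arrays. The calls, the separation of the groups and the correlations are also given without this array.

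Most of the antiviral genes were up-regulated in old hippocampus, each by about 2-fold or more. Of the 10 genes, 7 passed both thresholds of the comparison (adjusted p under 0.1 by limma and a log2 change of at least 0.5) in the direction of higher level in 29M, namely Ifit1, Rtp4, Oas1a, Usp18, Bst2, Ifit3 and Oasl2. Over the whole array 1.84% of genes had a probe called higher, and 0.902% had a probe called lower. None of the 10 was called lower, and none had a log2 change below 0, so that none was lower at an unadjusted p under 0.05 either. By probe, 7 of 12 were called higher against 1.25% of all probes tested, and 0 of 12 were called lower against 0.817%. The median log2 change of the 10 genes was 1.18, with a range from 0.39 to 1.42, while the median over all genes was 0.01. In 5 of the 10 genes every 29M array lay above every 3M array, which held for 6.33% of all genes (for 5 of 12 probes, against 5.51% of all probes). Isg15, Ifi44 and Rsad2 missed the thresholds, and their log2 changes of 0.39, 0.59 and 0.45 were the smallest of the 10. All 12 probes were well above background on all 8 arrays. Since whole tissue was measured, more cells of an expressing type and more RNA per cell cannot be told apart.

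**Figure D1:**
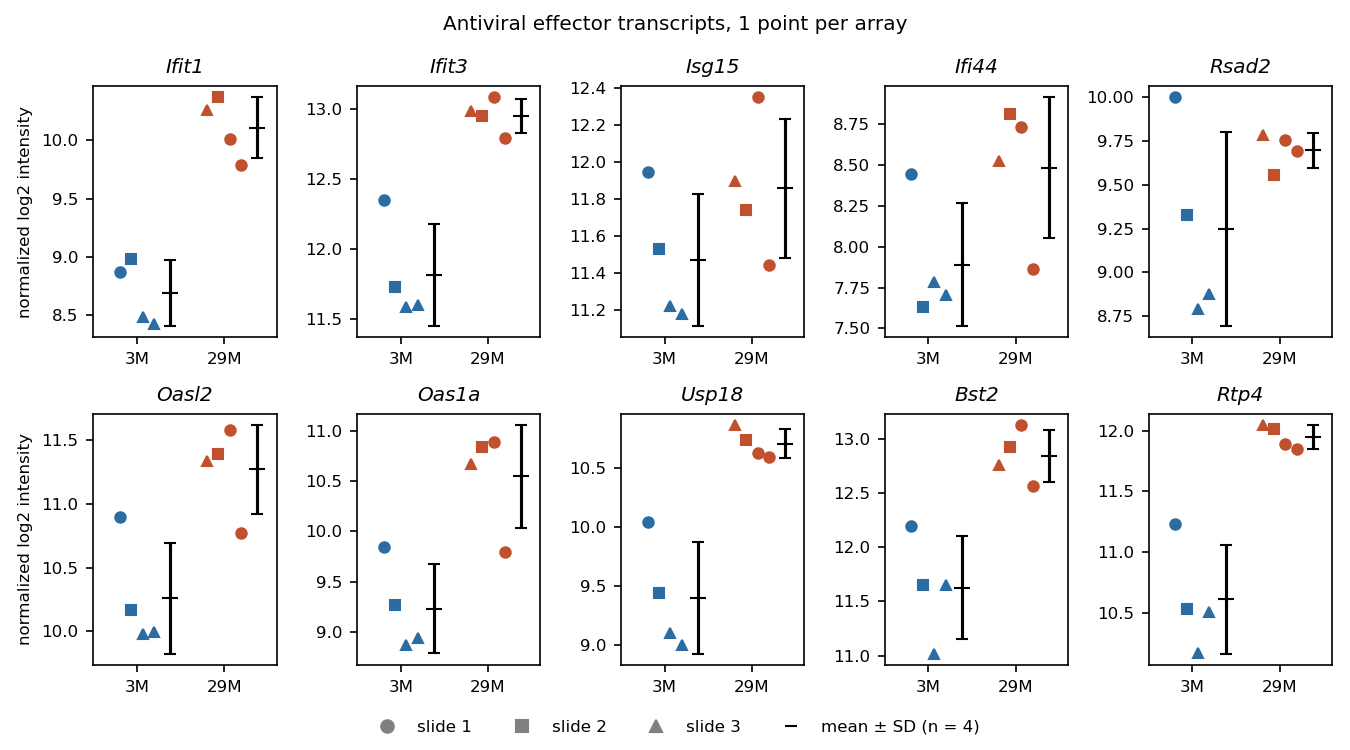
Normalized log2 intensity of each of the 10 genes on each array (1 panel per gene, probe with the highest mean; points are single arrays of the 3M and 29M groups, bars are group means). The groups are fully separated for Ifit1, Ifit3, Usp18, Bst2 and Rtp4, and 3M replicate 1 lies inside the 29M range for Isg15, Ifi44, Oasl2 and Oas1a and above it for Rsad2.

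**Figure D2:**
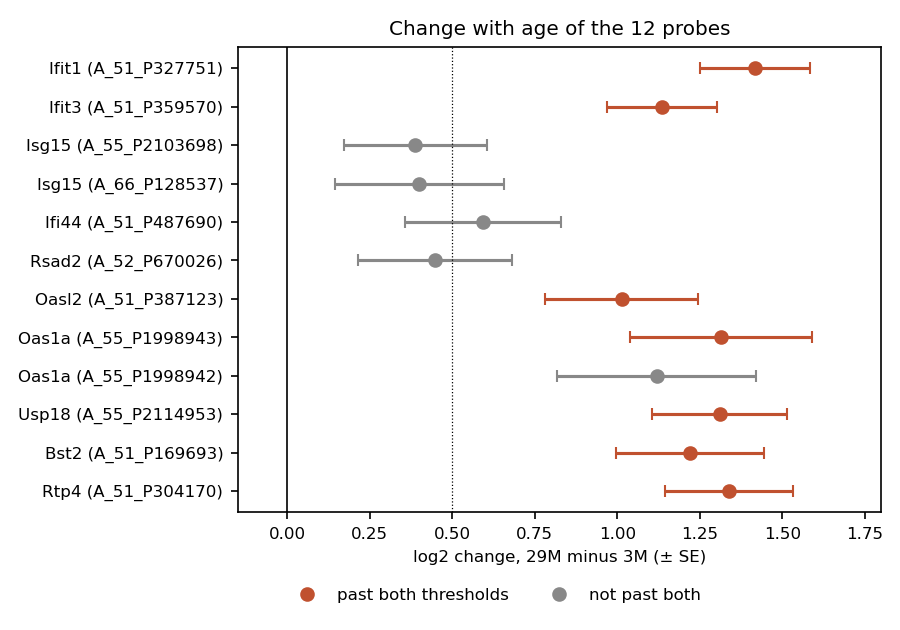
Log2 change between 29M and 3M of each of the 12 probes, with the standard error from the limma fit; the dotted line marks the size threshold of 0.5. The 7 probes past both thresholds have changes from 1.01 to 1.42, and both Isg15 probes, the Rsad2 probe, the Ifi44 probe and the second Oas1a probe are not past both.

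Promoter stretches are shown because type I interferon is known to act through an element in them, which was searched for here. In the RefSeq promoter table (GRCm38.p6, 250 bases before to 50 after the start of each gene), 8 of the 10 genes were found; Usp18 and Rtp4 were not in it. The core of the interferon-stimulated response element was searched on both strands as GAAA, any 2 bases and GAAA again. It occurred in 3.44% of all 32851 promoters of this length (3.99% of 27025 genes) and in 6 of the 8 found here. The stretches holding the matches are printed 5′ to 3′ in the direction of the gene, with the letters of the matches in capitals and up to 12 bases on each side; a match on the other strand reads TTTC, 2 bases, TTTC.
Ifit1 (chr19:34640773-34640825, plus strand): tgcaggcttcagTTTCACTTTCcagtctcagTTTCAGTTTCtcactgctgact
Ifit3 (chr19:34583361-34583428, plus strand): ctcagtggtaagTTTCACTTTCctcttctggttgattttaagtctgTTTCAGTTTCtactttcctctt
Isg15 (chr4:156200863-156200908, minus strand): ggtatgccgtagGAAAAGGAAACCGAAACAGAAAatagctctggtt
Oas1a (chr5:120907518-120907557, minus strand): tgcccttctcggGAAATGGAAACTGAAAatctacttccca
Rsad2 (chr12:26456551-26456584, minus strand): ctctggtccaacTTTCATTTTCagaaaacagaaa
Bst2 (chr8:71537575-71537614, minus strand): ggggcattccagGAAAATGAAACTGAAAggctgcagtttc

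Ifit1 and Ifit3 each held 2 separate matches on the strand opposite to the gene. In Isg15, 3 matches overlapped one another in a single run, and in Oas1a and Bst2 a pair of matches overlapped. Rsad2 held 1 match. The element was thus present in genes that were called (Ifit1, Ifit3, Oas1a, Bst2) and in genes that were not (Isg15, Rsad2). No match was found in the windows of Oasl2, which was called, and Ifi44, which was not; this says only that these letters are not in the window. The core of the gamma interferon activated site, TTCNNNGAA, which reads the same on both strands, occurred in 8.3% of promoters and in those of Oas1a and Bst2.

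The IFIT family, whose member IFIT1 binds viral RNA whose cap lacks the host's methyl marks, included the gene with the largest log2 change of the 10. Ifit1 (probe A_51_P327751) had levels of 8.87, 8.99, 8.48 and 8.42 on the 3M arrays and of 10.26, 10.37, 10.01 and 9.79 on the 29M arrays. The groups did not overlap, with 0.80 between the highest 3M and the lowest 29M array, and here 3M replicate 2 rather than replicate 1 was the highest young array. The means were 8.69 ± 0.28 and 10.11 ± 0.26 (SD, n = 4 each), a log2 change of 1.42 (SE 0.17) or 2.67-fold, with an adjusted p of 0.00556 by limma. Ifit3 (A_51_P359570), another gene of this family, read 12.35, 11.73, 11.58 and 11.60 in 3M and 12.98, 12.95, 13.08 and 12.79 in 29M. The old arrays lay close together and all above the young ones, of which replicate 1 was the highest by more than the others differed. Its log2 change was 1.14 (SE 0.17), 2.20-fold, adjusted p 0.0151 by limma. The mouse genome holds close copies of Ifit3, such as Ifit3b, and a probe may read more than 1 of them.

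ISG15, a ubiquitin-like protein that is joined to other proteins during infection, and USP18, the protease that removes it and also silences the interferon receptor, fell on either side of the thresholds. Isg15 (A_55_P2103698) had levels of 11.95, 11.53, 11.22 and 11.18 in 3M and of 11.89, 11.74, 12.35 and 11.44 in 29M. The groups overlapped at both ends: 3M replicate 1 exceeded all but 1 old array, and 29M replicate 4 lay below 2 of the young ones. The log2 change was 0.39 (SE 0.22), 1.31-fold, with an adjusted p of 0.407 by limma, and the second Isg15 probe (A_66_P128537) gave 0.40 (SE 0.26) with an adjusted p of 0.470. Both probes thus gave the same size of change, and the gene did not pass the test. Usp18 (A_55_P2114953) read 10.05, 9.44, 9.10 and 9.001 in 3M against 10.87, 10.74, 10.63 and 10.60 in 29M. The groups were separated by 0.55 and the old arrays varied little. The means of Usp18 were 9.40 ± 0.47 and 10.71 ± 0.12 (SD, n = 4 each), a log2 change of 1.31 (SE 0.21), 2.48-fold, adjusted p 0.0198 by limma.

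The OAS family senses double-stranded RNA: OAS1A makes oligoadenylates that activate RNase L, and OASL2 is a related protein with ubiquitin-like domains. Oas1a (A_55_P1998943) stood at 9.84, 9.27, 8.87 and 8.94 in 3M and at 10.67, 10.83, 10.88 and 9.80 in 29M. A single pair of arrays overlapped, 29M replicate 4 lying 0.05 below 3M replicate 1, and the other 3 old arrays were above all young ones. The log2 change of 1.31 (SE 0.28), 2.49-fold, passed with an adjusted p of 0.0552 by limma. The second Oas1a probe (A_55_P1998942) gave 8.38, 7.75, 7.54 and 7.36 against 9.06, 9.19, 9.26 and 8.01, with the same pair of arrays overlapping. Its log2 change was 1.12 (SE 0.30) with an adjusted p of 0.111 by limma, so that the gene's call rests on 1 of its 2 probes. Oasl2 (A_51_P387123) read 10.90, 10.16, 9.98 and 9.99 in 3M and 11.33, 11.40, 11.58 and 10.77 in 29M. Again only 29M replicate 4 fell below 3M replicate 1. The log2 change of Oasl2 was 1.01 (SE 0.23), 2.02-fold, adjusted p 0.0700 by limma, the weakest of the 7 calls. The Oas1 genes of the mouse form a cluster of close copies, and their probes may share signal.

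Among the genes acting at membranes and on replication, 2 changed strongly and 2 did not pass. Bst2 (A_51_P169693), or tetherin, which holds budding virus at the cell surface, had levels of 12.20, 11.65, 11.02 and 11.65 in 3M and of 12.76, 12.93, 13.13 and 12.57 in 29M. All old arrays were above all young ones, by at least 0.38. Its log2 change was 1.22 (SE 0.22), 2.33-fold, adjusted p 0.0348 by limma. Rtp4 (A_51_P304170), a chaperone that carries certain receptors to the cell surface and also restricts viruses, read 11.23, 10.53, 10.17 and 10.50 in 3M and 12.05, 12.01, 11.89 and 11.85 in 29M. The old arrays fell within a narrow band with an SD of 0.10, separated by 0.61 from the highest young array. The log2 change of Rtp4 was 1.34 (SE 0.19), 2.53-fold, adjusted p 0.0142 by limma.

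Rsad2 (A_52_P670026) encodes viperin, an enzyme that makes a chain-terminating nucleotide. Its levels were 9.9995, 9.33, 8.79 and 8.87 in 3M and 9.78, 9.56, 9.76 and 9.69 in 29M. The spread was on the young side, with 3M replicate 1 above every old array and the other 3 young arrays below every old one. The log2 change was 0.45 (SE 0.23), 1.36-fold, and the adjusted p by limma was 0.373. Ifi44 (A_51_P487690), an interferon-induced cytoplasmic protein, read 8.44, 7.63, 7.78 and 7.71 in 3M and 8.52, 8.81, 8.73 and 7.87 in 29M. Here 3M replicate 1 and 29M replicate 4 each lay nearer to the other group. The log2 change of Ifi44 was 0.59 (SE 0.24), 1.51-fold, adjusted p 0.246 by limma, and the unadjusted p of 0.0325 was under 0.05.

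The 10 genes largely shared their high and low arrays. On each array the mean deviation of the 10 genes from their own overall means was 0.05, -0.51, -0.83 and -0.75 in 3M replicates 1 to 4 and 0.58, 0.60, 0.67 and 0.18 in 29M replicates 1 to 4. The young array with the highest mean was replicate 1 and the old array with the lowest was replicate 4, which was the lowest old array for 9 of the 10 genes. In 29M replicates 1 to 3 all 10 genes were above the midpoint between the group means, in 29M replicate 4 it was 7 genes, in 3M replicate 1 it was 4 genes, and in the other young arrays 0. The excess of 3M replicate 1 over the mean of the other 3 young arrays ranged from 0.24 for Ifit1 to 1.001 for Rsad2. Without 3M replicate 1 the groups were separated for 9 of the 10 genes, the exception being Isg15, and for 12.2% of all genes.

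**Figure D3:**
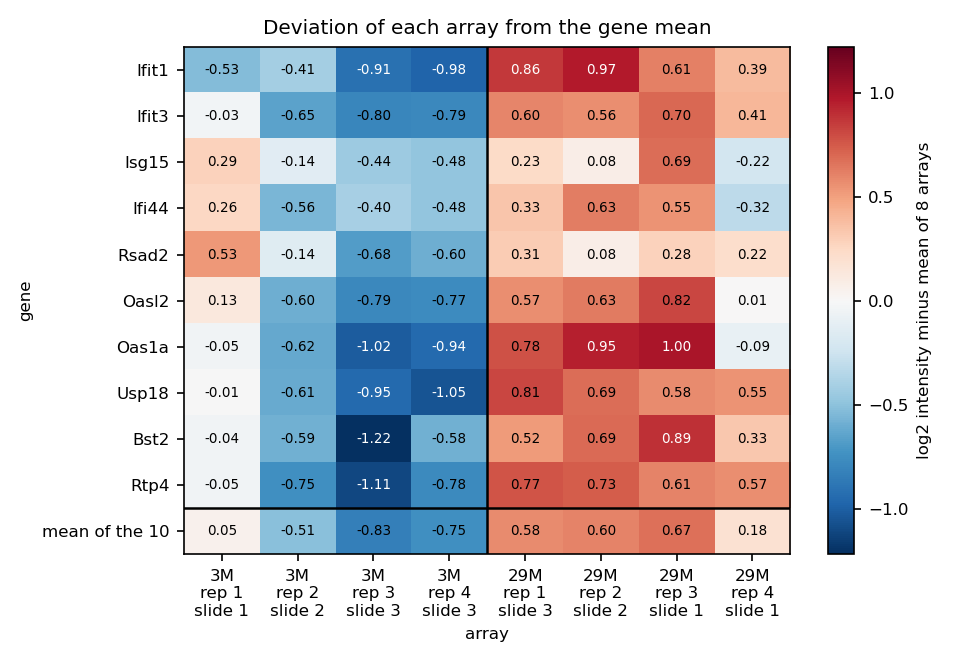
Deviation of each gene from its mean over the 8 arrays (log2), one column per array, for the 10 genes. 3M replicate 1 is the highest young array with a mean of 0.05, and 29M replicate 4 is the lowest old array with a mean of 0.18.

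Leaving out single arrays changed how many genes passed. Without 3M replicate 1, 9 of the 10 were called by limma, Rsad2 (log2 change 0.70, adjusted p 0.0322) and Ifi44 (0.78, adjusted p 0.0820) being added. Calls rose over the whole array too, from 491 to 824 probes higher and from 322 to 641 lower. Without 3M replicate 2 or without 29M replicate 2, 4 were called: Ifit1, Ifit3, Usp18 and Rtp4. The probes called higher over the whole array were then 267 and 287. Ifit1, Ifit3, Usp18 and Rtp4 were called in each of the 18 alternatives examined. Bst2 was called in 15, Oas1a in 11, Oasl2 in 8, Ifi44 in 2, Rsad2 in 1 and Isg15 in 0 (its adjusted p by limma ranged from 0.166 to 0.596). Each of the 10 log2 changes stayed above 0 in all 18.

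The arrays lay on 3 slides, each of which held both ages, so that the change could be read within a slide without a test. On slide 2 (3M replicate 2 and 29M replicate 2) the median log2 change of the 10 genes was 1.26 and all 10 were above 0, from 0.21 to 1.57. On slide 3 (3M replicates 3 and 4 with 29M replicate 1) the median was 1.41, again with all 10 above 0, from 0.69 to 1.82. Slide 1 held 3M replicate 1 with 29M replicates 3 and 4, the array of each age that lay nearest to the other age among them. There the median was 0.53 and 7 of 10 were above 0, the exceptions being Isg15 at -0.05, Ifi44 at -0.14 and Rsad2 at -0.28. The median change over all genes was 0.01, 0.01 and 0.00 on slides 1 to 3. With slide as a fixed block in the limma fit 5 of the 10 genes were called, Oas1a (adjusted p 0.126) and Oasl2 (adjusted p 0.148) being lost. Whether slide or the single arrays on slide 1 account for its smaller values was not tested.

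**Figure D4:**
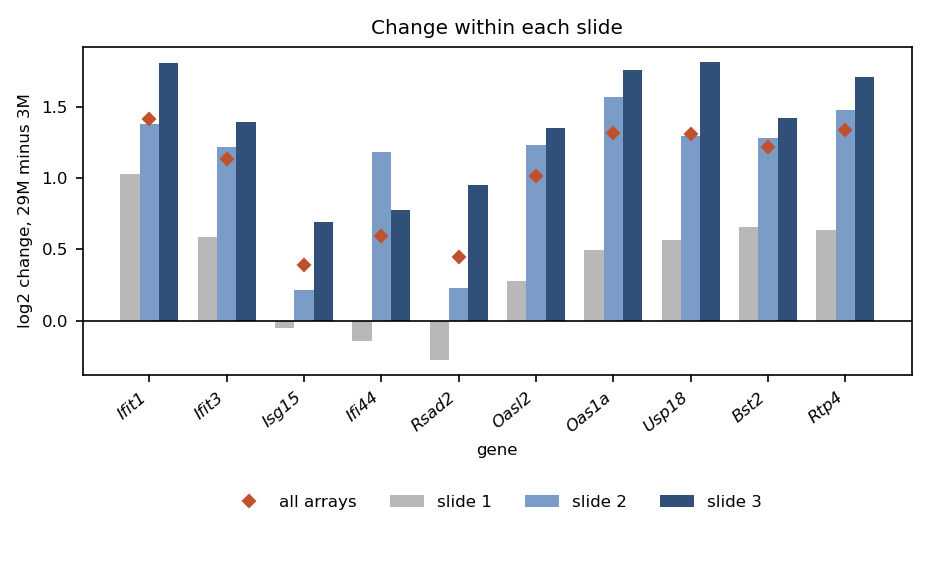
Log2 change between 29M and 3M of each of the 10 genes within each of the 3 slides, from the arrays on that slide. Ifit1 has the largest slide 1 value at 1.03, and the median of the 10 is 0.53 on slide 1, 1.26 on slide 2 and 1.41 on slide 3.

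Differences between the genes in their change were compared for all 45 pairs, by an exact two-sided permutation test of the within-array difference between both genes. With 4 arrays against 4 the smallest p such a test can give is 0.0286, and 19 pairs reached it, with a Benjamini-Hochberg adjusted p of 0.0677, so that 0 pairs were under 0.05 after adjustment. Each of the 19 pairs set Isg15, Rsad2 or Ifi44 against one of the 7 called genes. Among them the change of Ifit1 exceeded that of Isg15 by 1.03 on the log2 scale. The change of Rtp4 exceeded that of Isg15 by 0.95, Rsad2 by 0.89 and Ifi44 by 0.75. The calls and these pairs rest on the same log2 changes, so the pattern is no separate evidence.

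The other genes of the interferon pathway were examined in lists set up by role, 93 genes on the array apart from the 10. Of these, 14 were called higher and 0 lower by limma, against 1.84% and 0.902% of genes over the whole array. An unadjusted p under 0.05 by limma was found for 33, 1 of them lower. A log2 change above 0 was found for 71, and the median was 0.17, against 0.01 over all genes. Whole-array shares for the unadjusted p and for changes above 0 were not computed. 
Among 16 interferon ligand genes 0 were called by limma, 6 were above 0 and 1 had an unadjusted p under 0.05. Ifnb1, the interferon beta gene, was not well above background on any of the 8 arrays. Ifng, the type II interferon gene, had a log2 change of -0.49 (SE 0.19, adjusted p 0.237 by limma). Its levels were 7.36, 6.37, 6.44 and 6.80 in 3M, highest on replicate 1, and 6.22 to 6.33 in 29M. Ifna12 had a log2 change of -0.16 (adjusted p 0.339 by limma). Of 9 receptor and kinase genes 0 were called and 0 had an unadjusted p under 0.05. The type I receptor genes Ifnar1 and Ifnar2 had log2 changes of 0.13 (adjusted p 0.569) and -0.08 (adjusted p 0.703) by limma, the gamma receptor gene Ifngr1 0.30 (adjusted p 0.318) and the kinase gene Tyk2 -0.20 (adjusted p 0.508).

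Of the 8 transcription factor genes 2 were called higher: Irf7, which amplifies interferon production, by 0.66 (SE 0.14, adjusted p 0.0574), and Irf8, a factor of microglia and other myeloid cells, by 0.60 (SE 0.13, adjusted p 0.0641). For Irf7 the levels were 7.01, 6.94, 6.61 and 6.97 in 3M and 7.76, 7.70, 7.50 and 7.21 in 29M, with no overlap. Stat2 and Irf9, which encode subunits of ISGF3, had log2 changes of 0.03 (adjusted p 0.912) and 0.11 (adjusted p 0.633) by limma. Of 12 sensor and adaptor genes 3 were called higher. These were the RNA helicase genes Ddx58 (RIG-I; 0.67, adjusted p 0.0412) and Ifih1 (MDA5; 0.75, adjusted p 0.0670), and the endosomal RNA receptor gene Tlr7 by 1 probe (0.58, adjusted p 0.0420) while its brighter probe gave 0.24 (adjusted p 0.386).

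A few close relatives of the effectors were up-regulated as well. Of 14 other IFIT and OAS genes 3 were called higher: Ifit3b (0.89, adjusted p 0.0550), Oas1f (1.06, adjusted p 0.0719) and Oasl1, a regulator of IRF7 translation (0.72, adjusted p 0.0754), all by limma. The 4 other genes of the ISG15 pathway were all above 0 with an unadjusted p under 0.05, and 0 were called, the smallest adjusted p values being 0.184 for the ligase gene Herc6 (log2 change 0.61) and 0.209 for the conjugating enzyme gene Ube2l6 (0.19). Of 23 further antiviral effectors 5 were called higher. They were Lgals3bp, a secreted glycoprotein gene (1.30, adjusted p 0.0219), Trim30a, a TRIM family gene (1.08, adjusted p 0.0128), Xaf1, a pro-apoptotic gene (0.80, adjusted p 0.0103), Slfn8 of the Schlafen family (0.68, adjusted p 0.0906), and Samd9l, an antiviral factor gene, by 1 probe (0.79, adjusted p 0.0442) while its brighter probe gave 0.58 (adjusted p 0.165). Of 7 negative regulators 1 was called, Socs3, an inhibitor of JAK kinases, with a log2 change of 1.17 (SE 0.17, adjusted p 0.0151). The count of 14 fell to 4 without 29M replicate 1 or 29M replicate 2, to 5 without 3M replicate 3, 6 without 3M replicate 2, 7 without 3M replicate 4 and 8 without 29M replicate 3, and was 26 without 3M replicate 1.

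**Figure D5:**
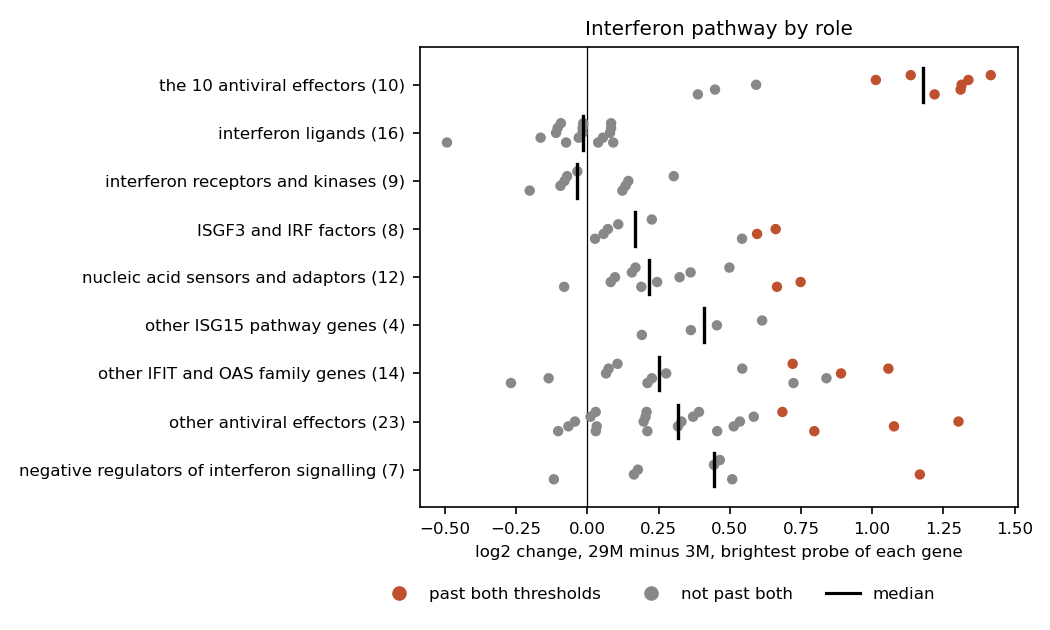
Log2 change between 29M and 3M of the 10 genes and of the 93 other interferon pathway genes by role (brightest probe of each gene, coloured where that probe passed both thresholds). Tlr7 and Samd9l, each called by a dimmer probe, are therefore not coloured. The 10 genes have a median of 1.18, while the interferon ligands and the receptors and kinases lie around 0 with no gene called.

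The genes whose variation within the groups was most like that of the 10 were sought among 15911 genes, by Pearson's r over the 8 arrays between a gene's deviations from its group means and the mean deviation of the 10. All points share their arrays, and how high the best r of so many genes runs by chance was not tested. The 6 highest were Ifi211, an interferon-inducible gene of the HIN-200 family (r = 0.99), Naip2, an inflammasome receptor gene (0.98), the granzyme gene Gzma (0.98), Vash1, an inhibitor of vessel growth (0.98), Fblim1 (0.98) and Ifit3b (0.98). Without 3M replicate 1 these r ranged from 0.93 for Fblim1 to 0.98 for Ifi211 over 7 arrays, and none of the 6 but Ifi211 stayed among the 6 highest. Their changes with age differed in sign: Naip2 was called higher (0.85, adjusted p 0.0206 by limma), Ifi211 had a log2 change of 0.83 (adjusted p 0.137), Gzma -0.44 (adjusted p 0.168) and Vash1 -0.34 (adjusted p 0.0984, under the size threshold). Of the 10 genes themselves, Ifit1 followed the mean of the other 9 least (r = 0.63) and Oasl2 most (r = 0.97). Without 3M replicate 1 that order changed, with Rsad2 lowest (r = 0.43) and Oas1a highest (r = 0.95).

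Markers of cell types that can express these genes were read on the same arrays. Over the whole array 1.84% of genes were called higher and 0.902% lower. Of 14 microglial genes 3 were called higher by limma, the protease gene Ctss (0.83, adjusted p 0.0137), the receptor gene Trem2 (0.65, adjusted p 0.0493) and its adaptor gene Tyrobp (0.80, adjusted p 0.0298), and 12 had a log2 change above 0. The mean deviation of the microglial list ran from -0.29 to -0.02 in 3M and from 0.01 to 0.26 in 29M, with 3M replicate 1 again the highest young and 29M replicate 4 the lowest old array. Of 11 T and B cell genes 2 were called higher, Cd3d (0.96, adjusted p 0.0103) and Cd8a (0.71, adjusted p 0.00732), with list means from -0.16 to 0.07 in 3M and from 0.00 to 0.14 in 29M. Of these 11 genes 6 had a log2 change above 0, and the median was 0.07. Their partner genes Cd3e (0.07, adjusted p 0.722 by limma) and Cd8b1 (-0.04, adjusted p 0.913) were well above background on all 8 arrays and were not called. A second, dim Cd8a probe gave -0.17 (adjusted p 0.738), and Cd3g was detected over background on 1 array of 8. None of the 8 genes of perivascular macrophages and monocytes was called, with 2 at an unadjusted p under 0.05 and list means from -0.30 to 0.14 in 3M and from -0.06 to 0.35 in 29M. None of the 7 genes of plasmacytoid dendritic cells other than Bst2, a cell type that releases much interferon, was called either. Their median log2 change was -0.25, and 2 were lower at an unadjusted p under 0.05 by limma, Tcf4 and Pacsin1. The second probe of Pacsin1 went the other way (0.13, adjusted p 0.523 by limma), and that of Tcf4 gave -0.35 (adjusted p 0.630). Siglech of this list is in the microglial list too. The list was not tested as a measure of that cell type and is not read as one here. Gfap of astrocytes (0.71, adjusted p 0.0236 by limma) and Ermn of oligodendrocytes (by 1 probe, 0.76, adjusted p 0.0452, while its brighter probe gave -0.24, adjusted p 0.297) were called higher, 1 of 8 genes in each list. The median log2 change was 0.01 over the astrocyte list, with 4 of 8 genes above 0 and the glutamate transporter gene Slc1a2 at -0.22 (unadjusted p 0.0320, adjusted p 0.244 by limma), and 0.16 over the oligodendrocyte list. In the lists for endothelial cells, neurons, choroid plexus, meninges, ependyma and red blood cells 0 genes were called by limma. An unadjusted p under 0.05 by limma was found for 2 endothelial genes and 1 red blood cell gene. Single arrays differed widely in some of these lists. The list means of 3M replicate 3 were -0.76 for choroid plexus and -0.95 for ependyma. On the other young arrays they ran from -0.03 to 0.35 and from 0.14 to 0.58. For meninges 29M replicate 4 stood at -0.51 and 29M replicate 3 at 0.43. Whether the tissue taken differed between arrays was not tested. Without 3M replicate 1 the called genes above were called again. Aif1 of microglia and Lyve1 and Ms4a7 of perivascular macrophages were added as higher, and Tcf4 of the plasmacytoid dendritic cell list as lower. The microglial list means of the other 3 young arrays ran from -0.29 to -0.14. The part of these cell types in the change of the antiviral genes was not tested.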

How the data were processed

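Per the labels, hippocampal RNA of 4 mice per age was hybridised with Cy3 to 1-colour Agilent arrays. The deposited files hold the intensity of each spot as Agilent Feature Extraction 10.7.3.1 wrote it, per the file headers, before any normalization between arrays; the methods name another array version than the headers. A deposited table of the series held the local background of the arrays, 7 of its 8 columns that of another array than named, and was not used.

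After the study's methods, the median spot intensity (the files used here hold no mean) was normalized by a variance-stabilising model, written anew in R 4.3.3, and fitted with limma 3.58.1 (lmFit, eBayes). Control spots and outlier spots (127 to 190 per array) were left out, and spots of a probe were averaged. A probe needed 3 usable arrays per group, which 39408 did, and p-values were adjusted by Benjamini-Hochberg over these. A call needed an adjusted p under 0.1 and a log2 change of at least 0.5. A gene was called by any of its probes, and its value is that of its brightest probe. Accessions named 66.1% of probes through RefSeq (GRCm38.p6). The model was tested on simulated data. The number of arrays limits the precision.

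The genes, the lists and the rules were chosen with earlier results of these data known. Named are all 10 genes, the called genes of each pathway list (or the 2 with the smallest p where none was called), Ifnb1, Ifnar1, Ifnar2, Stat2, Irf9 and Irf7, the 6 genes most alike in variation and the called markers. A gene that the rule also names is not reported here. The second Cd8a probe, Cd3e, Cd3g, Cd8b1, Slc1a2, Pacsin1, the second Tcf4 probe, Siglech and the list means for choroid plexus, ependyma and meninges were added after their values were seen. So were the correlations and marker calls without 3M replicate 1, with the genes these add. Alternatives were another normalization (normexp, 75th percentile, processed signal), outlier spots kept, bright probes only, slide or replicate number as a block, array weights, the mean over probes, and each array left out.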

Additional observations from a re-analysis of the deposited data

Results flagged for a closer look

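In 68 groups of 4 arrays (each of the 12 probes and the mean of each gene list, by age), 1 array lay far from the other 3 in 2 groups, and chance alone gives about 1 in 20, or 3.4. For the second Oas1a probe (A_55_P1998942), 29M replicate 4 read 8.01 while the other old arrays read 9.06 to 9.26, a gap of 0.841 of the group's range. For the mean deviation of the interferon ligand list, 29M replicate 1 stood at 0.09 while the others lay between -0.07 and -0.05, a gap of 0.837 of the range.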

How the results depend on the processing

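Of the 10 genes, 7 were called, and between 5 and 8 were called under the alternatives that kept all arrays: 6 with the 75th percentile scaling, 6 with the model on the processed signal, 5 with slide as a fixed block and 8 with array weights. Leaving out single arrays gave 4 to 9 genes, 4 to 10 probes, 4 to 26 other pathway genes (14 with all arrays), 266 to 824 probes called higher over the array (491) and 135 to 641 called lower (322), with a median change of the 10 genes from 1.04 to 1.36. The median was 0.53 within slide 1. Pathway genes called higher numbered 7 with the 75th percentile, 8 with the processed signal, 7 with slide as a fixed block and 25 with array weights. Probes called lower were 171 with the processed signal and 626 with array weights, which gave 811 higher. Apart from Isg15, Ifi44 and Rsad2 within slide 1, no log2 change of the 10 genes turned direction.

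Same-numbered arrays did not all deviate together (correlations of -0.24, 0.21, -0.23 and 0.07). So few correlations cannot settle whether arrays were paired by number, and replicate 2 of both ages also shared slide 2. With the replicate number as a block, 5 of the 10 genes, 8 pathway genes, 267 higher probes and 145 lower probes were called. Depth does not apply to arrays; all 12 probes were well above background. The causes were not tested.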
